A study of Homo sapiens with 6 samples.

Results

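The 41 genes described here encode the enzymes that build fatty acids, elongate and desaturate them, activate them for use, assemble them into glycerolipids, and burn them by beta-oxidation. They were measured in A549, a long-established line from a human lung adenocarcinoma, on Illumina Human-6 bead arrays. The genes were taken by symbol from the platform annotation, and a gene counted as measured if 3 or more of the 6 arrays detected a probe of it (detection p under 0.05). This left 35 of the 41 genes, through 45 of their 62 probes, out of 10779 genes measured on the arrays. The genes were set apart by 3 roles: synthesis, with 16 of 17 genes measured, activation and glycerolipid assembly, with 7 of 10, and oxidation, with 12 of 14. The control group was 3 arrays of A549 cells without the compound, for which the sources used here name no vehicle. The other group was 3 arrays of A549 cells given DAMTC, a compound known here only by the labels' code name, at 160 µg/ml for 24 h. Both groups are the same single line in culture, and no separate cultures are named behind the triplicates. Each p-value below therefore measures only array-to-array spread, which may be technical.

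Fatty acid synthesis starts in the cytosol. ATP citrate lyase (ACLY) and the acetate-using synthetase ACSS2 supply acetyl-CoA, acetyl-CoA carboxylase (ACACA, ACACB) turns it into malonyl-CoA, and fatty acid synthase (FASN) builds palmitate from it with reducing power to which malic enzyme (ME1) contributes. Elongases (ELOVL) and desaturases (SCD, FADS) then lengthen the chains and introduce double bonds. Long-chain acyl-CoA is either assembled into phospholipid and triglyceride or carried into mitochondria by the carnitine shuttle (CPT1A, CPT2), where acyl-CoA dehydrogenases and the hydratase, dehydrogenase and thiolase steps shorten it. Malonyl-CoA inhibits CPT1, which links the opposing pathways. In lung, alveolar epithelial cells use the synthetic branch to make surfactant lipid.

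The arrays had between 16329 and 17835 probes detected, each probe read by a median of 36 to 38 beads. Of all 10779 genes, 24.9% changed at an adjusted p under 0.05 (limma, Benjamini-Hochberg over all genes), 12.2% upward and 12.8% downward, with a median log2 difference of -0.04. The control arrays held the first positions of the single chip and the DAMTC arrays the last, and effects of position and of group cannot be told apart. Among the 12 epithelial markers checked, KRT7, KRT8, KRT18, KRT19, EPCAM, CDH1, ABCA3 and LAMP3 were measured. SFTPA1, SFTPB, SFTPC and NKX2-1 were not among the measured genes. The summed level of the measured epithelial markers lay between 16010 and 26100 (normalized intensity, linear scale) in controls and between 21840 and 24590 with DAMTC. The brightest of these, KRT18 and KRT7, weigh most in it and differed by 0.53 and -0.43 (adjusted p = 0.309 and 0.266). Of 14 markers of blood, vessel, fibroblast and liver cells, only CD14, CD68, PECAM1 and HBA1 were measured, with a summed level of 1523 to 2461 in controls and 2571 to 6158 with DAMTC. CD68, by far the brightest of them, carries most of that sum, and it missed the threshold (1.10, adjusted p = 0.0628). CD14 was lower on every DAMTC array (-0.81, adjusted p = 0.103) and PECAM1 higher on every one (0.64, adjusted p = 0.125). CDH1 fell (-1.64, adjusted p = 0.0239), but missed the threshold without control replicate 2 or 3 or DAMTC replicate 1 (adjusted p from 0.0531 to 0.0786). LAMP3 fell (-2.36, adjusted p = 0.0403), by 1.39 without control replicate 2, and missed it when any 1 DAMTC replicate was left out (adjusted p from 0.0692 to 0.12) and without background correction (-1.24, adjusted p = 0.152). HBA1, detected on 0 control arrays, was at least 1.79-fold higher with DAMTC (adjusted p = 0.0351), a bound for the background correction used here. It missed the threshold without control replicate 2 or 3 or DAMTC replicate 1 or 3 (adjusted p from 0.0701 to 0.0952). It also missed it with a background offset of 50 (0.77, adjusted p = 0.0881) and without background correction (0.53, adjusted p = 0.0851). HBA1 met the detection rule only through the DAMTC arrays, which favoured a rise in advance. The part of these markers in the results was not tested.

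Of the 35 measured genes, 6 rose and 5 fell with DAMTC, 31.4% of them against 24.9% of all genes. Those that rose were ELOVL4 and ACSS2 in synthesis, LPIN1 and DGAT1 in glycerolipid assembly, and ETFDH and CPT1A in oxidation. Those that fell were ELOVL6, MID1IP1 and ACACA in synthesis, LPCAT1 in assembly and CPT2 in oxidation. Each role thus held genes that rose and genes that fell. The groups did not overlap for 14 of the 35 genes (40.0%), where 41.9% of all genes did not overlap. The DAMTC arrays lay above the controls for 7 (20.2% of all genes did) and below them for 7 (21.7% of all genes), and all 11 genes past the threshold were among them. ELOVL4, ELOVL6, ACSS2, LPIN1 and CPT2 passed in each of the 6 fits with 1 array removed, as in all 22 alternatives. The sign of all 11 differences was the same in every alternative. When arrays were brought to a common median instead of being quantile normalized, 29.5% of all changed genes were higher against 48.7%, and 3 of the 35 genes rose and 5 fell. With the deposited background-subtracted values 36.1% of all changed genes were higher, and 4 of the 35 rose and 5 fell. Without 1 array, the number that rose lay between 4 and 6 and the number that fell between 2 and 6. Of the 35 genes, 3 fell without control replicate 3 or DAMTC replicate 1 or 2, and 2 without DAMTC replicate 3. The rises numbered 4 without any 1 of the DAMTC replicates. Over all genes the share called also moved, from 14.8% without DAMTC replicate 3 to 34.4% without control replicate 1. Counts without 1 array given below for roles and lists come from these same fits.

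**Figure D1:**
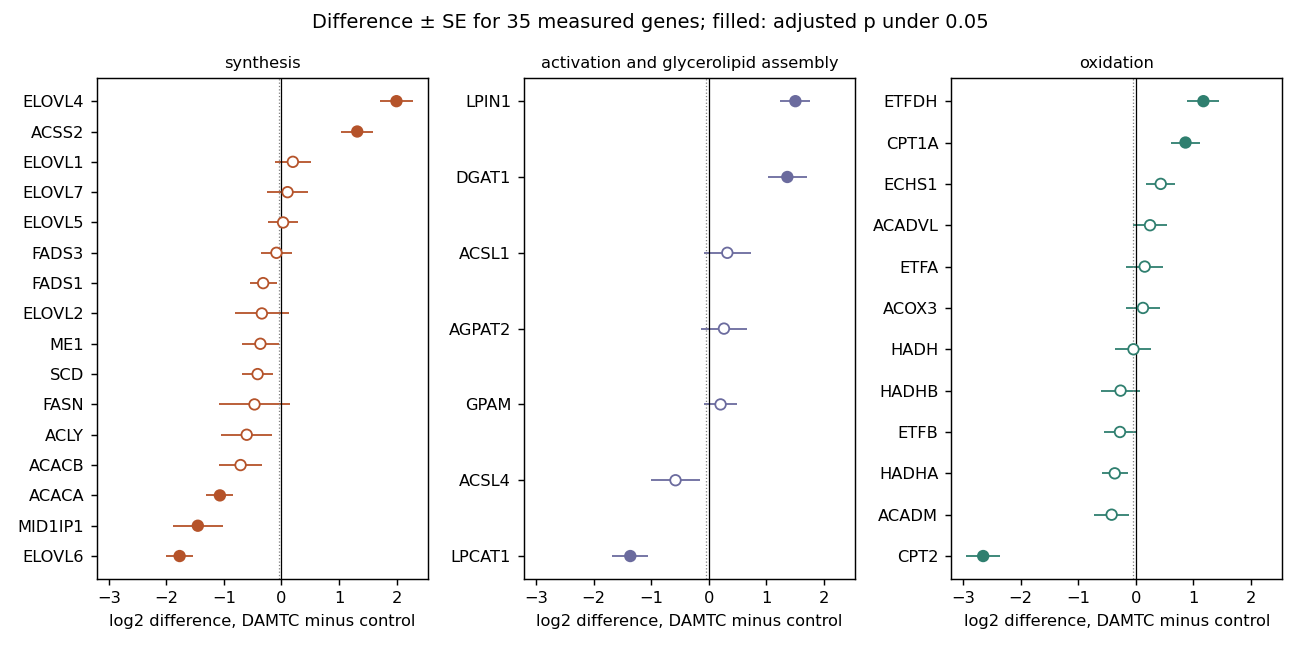
Log2 difference of DAMTC minus control, with its SE (n = 3 per group), for the 35 measured genes in the 3 roles, on a common horizontal axis. Filled points passed an adjusted p under 0.05, and the dotted line is the median of all genes at -0.04. The 5 filled points of synthesis lie at both ends of the panel, and CPT2 at -2.65 lies farthest from 0.

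In synthesis, 2 of the 16 measured genes rose, 3 fell and 11 missed the threshold, which is 31.2% called against 24.9% of all genes. Their median log2 difference was -0.35 beside -0.04 over all genes. Leaving out control replicate 1 gave a median of -0.22, leaving out DAMTC replicate 3 one of -0.23, and median scaling one of -0.50. Differences were negative for 11 of the 16 genes, beside 5633 of all 10779 genes. The transcript of the first committed enzyme fell. ACACA, the main cytosolic acetyl-CoA carboxylase, read 11.90, 11.67 and 11.73 on the control arrays and 10.69, 10.89 and 10.51 on the DAMTC arrays (normalized log2 intensity). Every DAMTC array lay below every control array, by a mean of 2.10-fold (log2 difference -1.07 ± 0.23 SE, adjusted p = 0.0118). Without DAMTC replicate 3 its difference was -0.97 with adjusted p = 0.0637. ACACB, the carboxylase isoform of the mitochondrial outer membrane, differed by -0.71 ± 0.38 (adjusted p = 0.210) and by -1.06 without control replicate 1 (adjusted p = 0.0279).

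MID1IP1, a protein that promotes the polymerization and activity of acetyl-CoA carboxylase, also fell. Its levels were 10.42, 12.05 and 11.21 in controls and 10.26, 9.31 and 9.74 with DAMTC (log2). The groups were separated by a narrow margin, between control replicate 1 and DAMTC replicate 1. Its difference was -1.45 ± 0.43, or 2.74-fold (adjusted p = 0.0383). This call held in 1 of the 6 fits without 1 array, that without control replicate 1 (-1.87, adjusted p = 0.00560), and was lost without control replicate 2 or 3 or any DAMTC replicate (adjusted p from 0.0502 to 0.136). A further MID1IP1 probe gave -1.25 ± 0.41 (adjusted p = 0.0563). The 250 bases before its start in RefSeq (GRCh38.p14) are shown because they hold the core of a sterol regulatory element, the sequence bound by SREBP, the transcription factor of lipid synthesis. In all, 5 motifs were searched on both strands of such windows: the sterol regulatory element core TCACNCCAC, the E-box CACGTG, the CCAAT box CCAAT, the GC box GGGCGG and the nuclear receptor hexamer AGGTCA. Capitals mark matches to any of these, and 0 matches of different motifs overlapped in the windows of the genes that changed.
MID1IP1, chrX:38801209-38801458, + strand: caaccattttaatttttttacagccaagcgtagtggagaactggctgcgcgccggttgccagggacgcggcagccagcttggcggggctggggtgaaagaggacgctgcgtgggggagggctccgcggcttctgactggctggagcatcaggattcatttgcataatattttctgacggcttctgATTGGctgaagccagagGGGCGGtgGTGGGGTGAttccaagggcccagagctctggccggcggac
Reading toward the start, the capitals are a CCAAT box on the opposite strand, a GC box, and the element core on the opposite strand, 40 bases before the start. That core was found in 0.883% of all 35116 windows and in 2 of the 47 windows of the measured genes, those of MID1IP1 and ACSL1. A match describes these letters and not binding.

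ACSS2, which makes acetyl-CoA from acetate in the cytosol and nucleus, moved the other way. It read 9.98, 10.73 and 10.74 in controls and 11.78, 11.84 and 11.77 with DAMTC. Every DAMTC array was higher, with control replicate 1 the lowest of all arrays, by 2.49-fold (1.32 ± 0.28, adjusted p = 0.00980). The remaining enzymes between citrate and palmitate did not pass. FASN read 10.94, 12.58 and 12.83 in controls and 12.82, 11.40 and 10.72 with DAMTC. Both groups spanned about the same range, and the difference of -0.47 ± 0.62 (adjusted p = 0.631) lay between -1.08 without control replicate 1 and -0.002 without DAMTC replicate 3. ACLY differed by -0.60 ± 0.44 (adjusted p = 0.360), between -1.05 without control replicate 2 and -0.22 without control replicate 1. ME1 differed by -0.37 ± 0.33 (adjusted p = 0.462), between -0.62 and -0.13 without those same arrays.

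All 6 elongases were measured, and they did not move together. Elongases are membrane enzymes of the ER that add carbon pairs to acyl-CoA of a chain length particular to each. ELOVL4, which makes very long chain fatty acids, read 8.95, 8.22 and 8.11 in controls and 10.48, 10.55 and 10.24 with DAMTC. The DAMTC arrays lay close together and well above the controls, by 4.0-fold (2.00 ± 0.29, adjusted p = 0.00192). ELOVL6, which lengthens palmitate to stearate, read 10.79, 10.46 and 10.51 in controls and 8.73, 8.93 and 8.78 with DAMTC. It was lower on every DAMTC array, by 3.41-fold (-1.77 ± 0.23, adjusted p = 0.00119), and a further ELOVL6 probe gave -1.40 ± 0.26 (adjusted p = 0.00594). The other elongases differed by 0.20 (ELOVL1), -0.34 (ELOVL2), 0.03 (ELOVL5) and 0.11 (ELOVL7), each with overlapping groups and adjusted p from 0.649 to 0.949. The upstream windows of the elongases that changed are set side by side, because these genes moved in opposite directions.
ELOVL4, chr6:79947554-79947803, - strand: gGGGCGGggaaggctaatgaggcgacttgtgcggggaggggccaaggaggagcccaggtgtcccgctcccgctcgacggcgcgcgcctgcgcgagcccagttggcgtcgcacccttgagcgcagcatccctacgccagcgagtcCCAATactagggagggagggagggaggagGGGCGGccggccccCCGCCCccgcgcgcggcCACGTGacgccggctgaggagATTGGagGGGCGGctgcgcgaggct
ELOVL6, chr4:110198616-110198865, - strand: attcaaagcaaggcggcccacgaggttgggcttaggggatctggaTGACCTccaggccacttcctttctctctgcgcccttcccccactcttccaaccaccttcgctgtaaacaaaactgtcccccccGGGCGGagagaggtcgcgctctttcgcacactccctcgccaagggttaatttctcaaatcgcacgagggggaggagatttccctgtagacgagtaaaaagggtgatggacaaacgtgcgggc
The ELOVL4 window, with 74.4% G and C, holds an E-box, which is 46 bases before the start, a CCAAT box on each strand and 4 GC boxes. The ELOVL6 window, with 57.2% G and C, holds a GC box and a nuclear receptor hexamer. An E-box was found in 6.34% of all windows and the hexamer in 12.1%. Among the measured genes the E-box was found for ELOVL4 and ELOVL5, and the hexamer for ELOVL6 and ACACA.

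**Figure D2:**
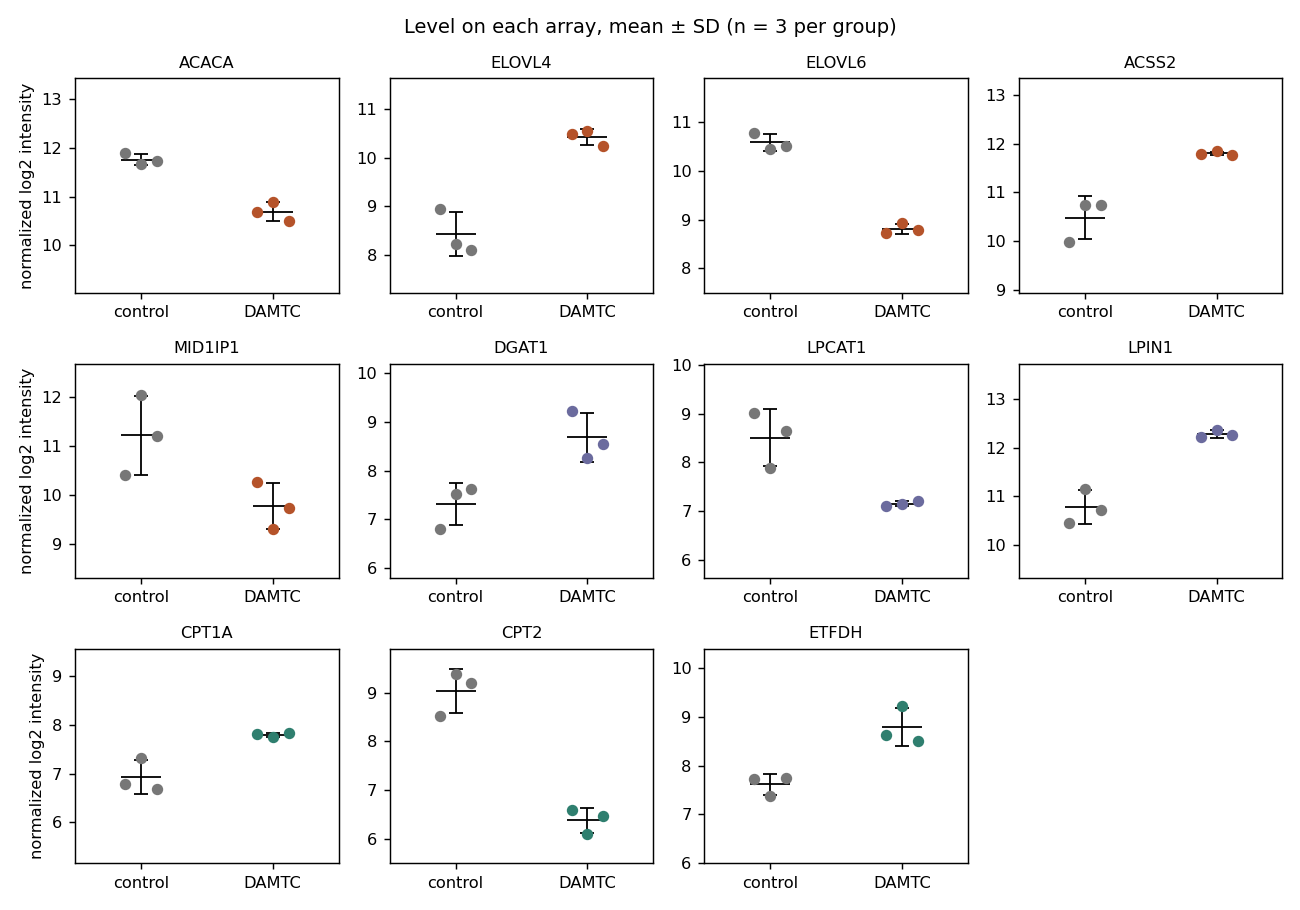
Normalized log2 intensity on each array for the 11 genes that changed, control arrays in grey and DAMTC arrays in colour. Horizontal bars and whiskers are the mean ± SD (n = 3), and every vertical axis spans the same number of log2 units. In each panel the groups do not overlap, with the narrowest gap for MID1IP1.

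Of the 3 measured desaturases, 0 passed in limma, beside 24.9% of all genes, and 0 had an unadjusted p under 0.05. With 3 genes, a count of 0 does not set them apart from all genes. SCD, the stearoyl-CoA desaturase that makes monounsaturated fatty acids, read 14.76, 14.05 and 14.31 in controls and 13.82, 14.09 and 13.97 with DAMTC. DAMTC replicate 2 lay above control replicate 2, and the difference was -0.41 ± 0.26 (adjusted p = 0.293). FADS1, the delta-5 desaturase of polyunsaturated fatty acids, was lower on every DAMTC array, at 11.87, 12.02 and 11.98 against 12.20, 12.13 and 12.51. Its difference of -0.32 ± 0.23 was not past the threshold (adjusted p = 0.365). FADS3 differed by -0.09 ± 0.27 (adjusted p = 0.845).

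Among the 7 measured genes of activation and glycerolipid assembly, 2 rose, 1 fell and 4 did not pass, which is 42.9% called against 24.9% of all genes. Their median log2 difference was 0.27, and -0.0577 with median scaling, or 0.0633 from the deposited values. It was 0.10 without control replicate 2, 0.15 without control replicate 3 and 0.41 without DAMTC replicate 1. LPIN1, a phosphatidate phosphatase that makes the diacylglycerol for triglyceride and also acts as a nuclear coactivator, read 10.46, 11.15 and 10.72 in controls and 12.23, 12.37 and 12.26 with DAMTC. Its DAMTC arrays were all higher and nearly alike, by 2.84-fold (1.51 ± 0.26, adjusted p = 0.00401). DGAT1, which completes triglyceride, read 6.81, 7.52 and 7.61 in controls and 9.23, 8.26 and 8.56 with DAMTC. It was higher on every DAMTC array, by 2.58-fold (1.37 ± 0.34, adjusted p = 0.0195). DGAT1 missed the threshold without DAMTC replicate 1 (1.09, adjusted p = 0.0732) or 3 (1.44, adjusted p = 0.0579) and with median scaling (1.03, adjusted p = 0.0573). LPCAT1, the acyltransferase that remodels phosphatidylcholine and is known for its part in making surfactant lipid, read 9.01, 7.88 and 8.65 in controls and 7.10, 7.15 and 7.20 with DAMTC. Its DAMTC arrays were alike and all lower, by 2.57-fold (-1.36 ± 0.32, adjusted p = 0.0147). Its call was lost without control replicate 3 or any DAMTC replicate, with adjusted p from 0.0517 to 0.0547 and differences from -1.29 to -1.39, and the difference was -0.90 without background correction (adjusted p = 0.0300). The acyl-CoA synthetases ACSL1 and ACSL4, which activate long-chain fatty acids, differed by 0.33 ± 0.41 and -0.58 ± 0.42, and the acyltransferases of the early assembly steps, GPAM and AGPAT2, by 0.21 ± 0.29 and 0.27 ± 0.40. Adjusted p of these genes lay between 0.360 and 0.671.

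Among the 12 measured oxidation genes, 2 rose, 1 fell and 9 did not pass, which is 25.0% of them against 24.9% of all genes. Their median log2 difference was 0.04 beside -0.04 for all genes, and -0.26 with median scaling beside -0.26 for all genes. It was also negative with the deposited values (-0.156) and without control replicate 1 (-0.00506), control replicate 2 (-0.15) or DAMTC replicate 2 (-0.11). The rises numbered 0 under median scaling, under the deposited values and in the fit lacking DAMTC replicate 2, and 1 when control replicate 3 or DAMTC replicate 1 or 3 was left out. The difference of largest size among the 35 genes was that of CPT2, the inner-membrane carnitine palmitoyltransferase that turns acylcarnitine back into acyl-CoA. CPT2 read 8.52, 9.38 and 9.19 in controls and 6.59, 6.09 and 6.46 with DAMTC. All DAMTC arrays lay far below all controls, by 6.28-fold (-2.65 ± 0.30, adjusted p = 6.80e-04). Without background correction its difference was -1.66, and it was -3.14 with the deposited values. It was measured by 1 probe.

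CPT1A, the outer-membrane enzyme that commits long-chain acyl groups to the mitochondrion, read 6.79, 7.33 and 6.68 in controls and 7.81, 7.75 and 7.83 with DAMTC. The DAMTC arrays were higher and nearly alike, by 1.82-fold (0.86 ± 0.26, adjusted p = 0.0391). A further CPT1A probe, annotated to another transcript of the gene, read 6.46, 6.58 and 6.06 against 6.04, 5.94 and 6.37, with overlapping groups and a difference of -0.25 ± 0.26 (adjusted p = 0.533). With the probes averaged the difference was 0.31 (adjusted p = 0.410). The CPT1A call was also lost without control replicate 3 (0.74) or any DAMTC replicate (0.85 to 0.89), with adjusted p from 0.106 to 0.125 over these fits, and with median scaling (0.51, adjusted p = 0.194) and with the deposited values (0.69, adjusted p = 0.118). The windows before the starts of the shuttle's transferase genes are shown because the brighter CPT1A probe and the CPT2 probe moved in opposite directions.
CPT1A, chr11:68844278-68844527, - strand: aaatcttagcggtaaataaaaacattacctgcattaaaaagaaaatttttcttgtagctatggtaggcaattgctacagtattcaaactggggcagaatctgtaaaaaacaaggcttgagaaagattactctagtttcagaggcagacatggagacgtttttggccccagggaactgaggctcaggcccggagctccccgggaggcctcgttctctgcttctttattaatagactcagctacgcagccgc
CPT2, chr1:53196574-53196823, + strand: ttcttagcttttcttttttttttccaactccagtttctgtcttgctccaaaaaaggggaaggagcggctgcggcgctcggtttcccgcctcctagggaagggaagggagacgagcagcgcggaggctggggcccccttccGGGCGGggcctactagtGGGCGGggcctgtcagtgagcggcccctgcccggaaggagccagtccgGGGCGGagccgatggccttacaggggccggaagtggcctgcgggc
The CPT1A window, with 44.4% G and C, holds none of the 5 motifs, and the CPT2 window, with 65.2%, holds 3 GC boxes, a motif found in 42.6% of all windows and in 37 of the 47 windows of the measured genes.

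**Figure D3:**
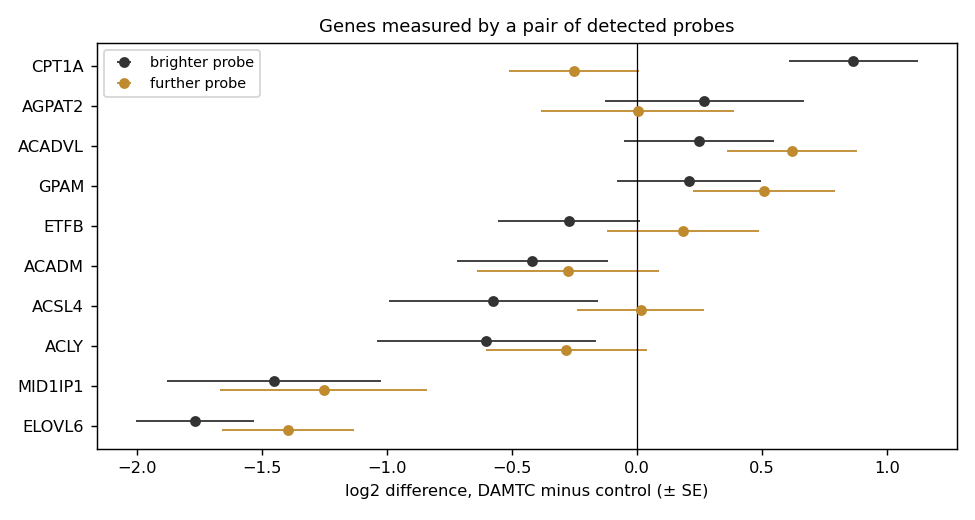
Log2 difference of DAMTC minus control with its SE for the 10 genes measured by a pair of detected probes, the brighter probe in black and the further probe in ochre. The probes had the same sign for 7 genes and opposite signs for CPT1A, ETFB and ACSL4.

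ETFDH, which passes electrons from acyl-CoA dehydrogenases through the electron transfer flavoprotein to ubiquinone, read 7.72, 7.37 and 7.75 in controls and 8.62, 9.23 and 8.51 with DAMTC. Every DAMTC array was higher, by 2.26-fold (1.18 ± 0.28, adjusted p = 0.0162). It no longer passed without DAMTC replicate 2 (0.95, adjusted p = 0.0707), with median scaling (0.83, adjusted p = 0.0628) and with the deposited values (0.99, adjusted p = 0.0539). Its partners ETFA and ETFB, the subunits of the flavoprotein itself, differed by 0.16 ± 0.32 and -0.27 ± 0.28 (adjusted p = 0.761 and adjusted p = 0.529). The enzymes of the beta-oxidation spiral did not pass. HADHA, the alpha subunit of the mitochondrial trifunctional protein, was lower on every DAMTC array, at 8.65, 8.64 and 8.49 against 9.10, 8.81 and 8.97, with a difference of -0.37 ± 0.23 (adjusted p = 0.282). ECHS1, the short-chain enoyl-CoA hydratase, was higher on every DAMTC array, at 11.92, 12.11 and 11.80 against 11.47, 11.26 and 11.79, with a difference of 0.43 ± 0.25 (adjusted p = 0.244). Neither separation was past the threshold. The acyl-CoA dehydrogenases ACADM and ACADVL, of medium and very long chains, differed by -0.42 ± 0.30 and 0.25 ± 0.30. A further ACADVL probe was higher on every DAMTC array (0.62 ± 0.26, adjusted p = 0.117), and a further ACADM probe gave -0.28 ± 0.36 (adjusted p = 0.630). HADHB, HADH and the peroxisomal oxidase ACOX3 differed by -0.26 ± 0.33, -0.04 ± 0.31 and 0.12 ± 0.29, all with overlapping groups.

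The genes that were not measured were FADS2, ACSL5, DGAT2, ACADL and ACADS, while ACSL3 was not listed with a symbol of its own in the platform annotation and was not analysed here. Just outside the detection rule, ACSL5, DGAT2 and ACADL were detected on 1 array at most. FADS2, which makes the first desaturation of essential fatty acids, and ACADS, the short-chain acyl-CoA dehydrogenase, were detected on 0 arrays. Just inside it, ELOVL2 and FADS3 were detected on 5 arrays, and the remaining 33 genes on all 6.

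The 35 genes varied more between control arrays than between DAMTC arrays. Their median SD was 0.448 in controls and 0.257 with DAMTC (log2, n = 3 each), beside 0.407 and 0.254 over all genes. The SD was larger in controls for 29 genes. Control replicate 1 gave the value farthest from the control median for 19 of the 35 genes, control replicate 2 for 10 and control replicate 3 for 6, and control replicate 1 held that place for 57.3% of all genes. Without it, ACACB joined the genes that fell and none of the 11 calls was lost.

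**Figure D4:**
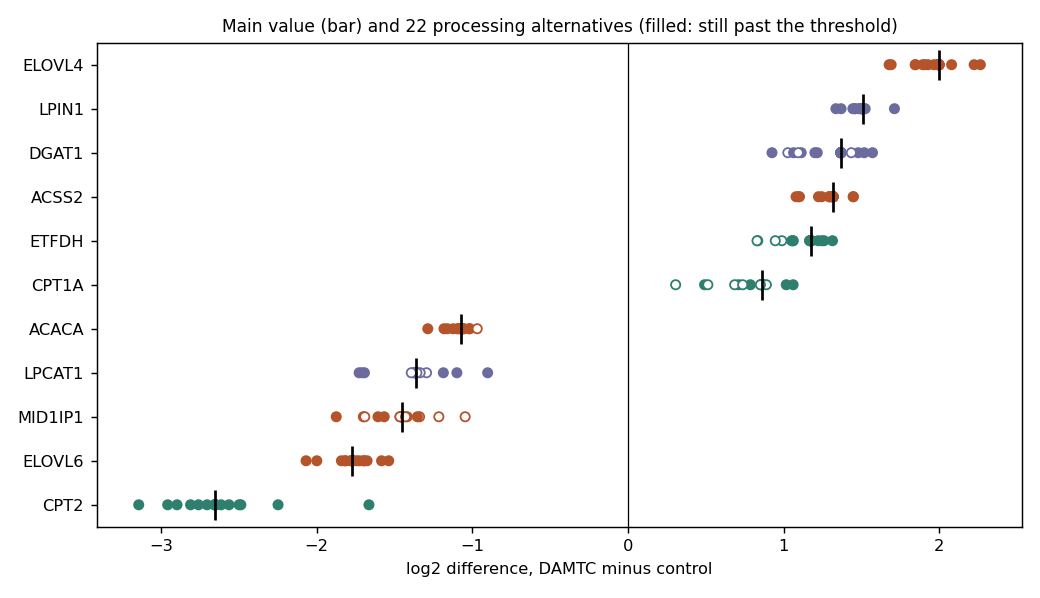
Log2 difference of DAMTC minus control for the 11 genes that changed, with the reported value as a vertical bar and each of 22 processing alternatives as a point, filled where the gene was still past that alternative's threshold. No point crosses 0, and all points are filled for ELOVL4, LPIN1, ACSS2, ELOVL6 and CPT2.

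Other genes of fatty acid metabolism, outside the 41, were taken from lists chosen for their function, with earlier results of these data known. The shares called in these lists are therefore no independent support. Of 16 further measured synthesis genes, 3 rose and 3 fell, which is 37.5% called against 24.9% of all genes. ELOVL3, an elongase of very long saturated chains, was detected on 0 control arrays and all 3 DAMTC arrays and was at least 3.18-fold higher, at 6.90, 7.17 and 6.77 with DAMTC (adjusted p = 5.39e-04). That bound holds for the background correction used here: the fitted difference of 2.22 was 1.38 with an offset of 50 and 0.91 without background correction. ELOVL3 met the detection rule only through the DAMTC arrays, which favoured a rise in advance, so its p-value is no independent support. The mitochondrial isocitrate dehydrogenase IDH2 rose by 1.35 ± 0.26 on the log2 scale and the citrate exporter SLC25A1, which supplies ACLY with substrate, by 0.94 ± 0.25. ACSS1, the mitochondrial counterpart of ACSS2, fell by 1.78 ± 0.24 on the log2 scale (adjusted p = 0.00138), the opposite direction to ACSS2. ACSS1 was detected on 2 of the 3 DAMTC arrays, at 5.33, 5.38 and 5.57 over all 3, near the dimmest detected probes. OXSM, the ketoacyl synthase of mitochondrial fatty acid synthesis, fell by 1.78 ± 0.29. MLYCD, which degrades malonyl-CoA, was detected on no DAMTC array and was at least 1.55-fold lower (adjusted p = 0.0290). That bound, too, holds for the background correction used here. With an offset of 50 the MLYCD difference was -0.53 and missed the threshold (adjusted p = 0.0747). MLYCD met the detection rule only through the control arrays, which likewise favoured a fall in advance. SLC25A1 missed the threshold without DAMTC replicate 1, 2 or 3 (adjusted p from 0.0686 to 0.108). It missed it too with median scaling (0.61, adjusted p = 0.137) and with the deposited values (0.75, adjusted p = 0.0756). Without background correction the differences of IDH2, ACSS1 and OXSM were 0.86, -0.74 and -0.86, each still past the threshold, and that of MLYCD was -0.32 and was not (adjusted p = 0.109). MLYCD also missed it without control replicate 3 or any DAMTC replicate (adjusted p from 0.0547 to 0.109).

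Of 16 further measured glycerolipid and lipid droplet genes, 4 rose and 1 fell, which is 31.2% called against 24.9% of all genes. ABHD5, the coactivator of adipose triglyceride lipase, rose 4.20-fold (2.07 ± 0.24, adjusted p = 7.90e-04), from 8.54, 8.03 and 8.16 to 10.38, 10.24 and 10.32. PNPLA2, that lipase, read 5.86, 6.70 and 6.53 in controls and 9.11, 7.09 and 7.84 with DAMTC. Its DAMTC arrays were higher but uneven, with a difference of 1.65 ± 0.49 (adjusted p = 0.0383), and the call was lost without control replicate 1 or 3 or DAMTC replicate 1 or 3 (differences from 1.10 to 1.75, adjusted p from 0.0655 to 0.0940). LPCAT2 rose by 1.25 ± 0.27 (adjusted p = 0.0115) and LPIN2, another lipin, by 0.92 ± 0.29 (adjusted p = 0.0485), while LPCAT4 fell by 0.90 ± 0.25 (adjusted p = 0.0295). LPCAT2 no longer passed when DAMTC replicate 2 was left out (adjusted p = 0.0535), LPIN2 without control replicate 2 or 3 or any DAMTC replicate (0.0957 to 0.151), and LPCAT4 without these same arrays (0.0552 to 0.117). With median scaling the calls of PNPLA2 (1.32, adjusted p = 0.0700) and LPIN2 (0.59, adjusted p = 0.163) were lost, as with the deposited values (adjusted p = 0.0592 and 0.156). Without background correction LPCAT2 differed by 0.47 (adjusted p = 0.0448), PNPLA2 by 0.94 (adjusted p = 0.0985) and LPCAT4 by -0.40 (adjusted p = 0.0651). The list held 2 rises without any 1 of the DAMTC replicates, and 0 falls in the fits in which LPCAT4 was lost.

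Of 28 further measured oxidation genes, 1 rose and 6 fell, which is 25.0% called against 24.9% of all genes. The rise was in ACAA1, the peroxisomal thiolase (1.16 ± 0.25, adjusted p = 0.0114). ACAD10 fell by 2.19 ± 0.31 on the log2 scale, ACAD11, an acyl-CoA dehydrogenase that takes hydroxylated acids, by 1.66 ± 0.30, and the difference of CROT, the peroxisomal carnitine octanoyltransferase, was -1.88 ± 0.34 (adjusted p = 0.00179, 0.00490 and 0.00503). Each of them was lower on every DAMTC array, and ACAD10 and CROT were detected on 2 of the 3 DAMTC arrays. ACOT13, a thioesterase, fell by 1.61 ± 0.38, and CPT1B, the muscle isoform of CPT1, by 1.12 ± 0.32 (adjusted p = 0.0166 and 0.0359), from 7.51, 8.72 and 8.02 to 6.94, 6.90 and 7.07. CPT1B thus differed in sign from the brighter CPT1A probe, and its call was lost without control replicate 2 or 3 or any DAMTC replicate (adjusted p from 0.0830 to 0.109). ACOT13 lost its call without DAMTC replicate 1 or 2 (0.0649 and 0.0671). The remaining fall, HSD17B4 (-0.81 ± 0.25, adjusted p = 0.0458), was named after its values were seen. Its call was lost in each of the 6 fits without 1 array (0.0544 to 0.167). With ACOT13, CPT1B and HSD17B4 all lost, 3 falls were left without DAMTC replicate 1 or 2. ACAA1 lost its call without DAMTC replicate 1 or 3 (0.0518 and 0.0554), which left 0 rises, while 2 genes rose without control replicate 3. Without background correction ACAD10, CROT and CPT1B differed by -0.98, -0.86 and -0.69, the last no longer past the threshold (adjusted p = 0.0675). SLC25A20, the carnitine carrier between CPT1 and CPT2, differed by 0.27 ± 0.27 (adjusted p = 0.514), and was named after its values were seen.

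**Figure D5:**
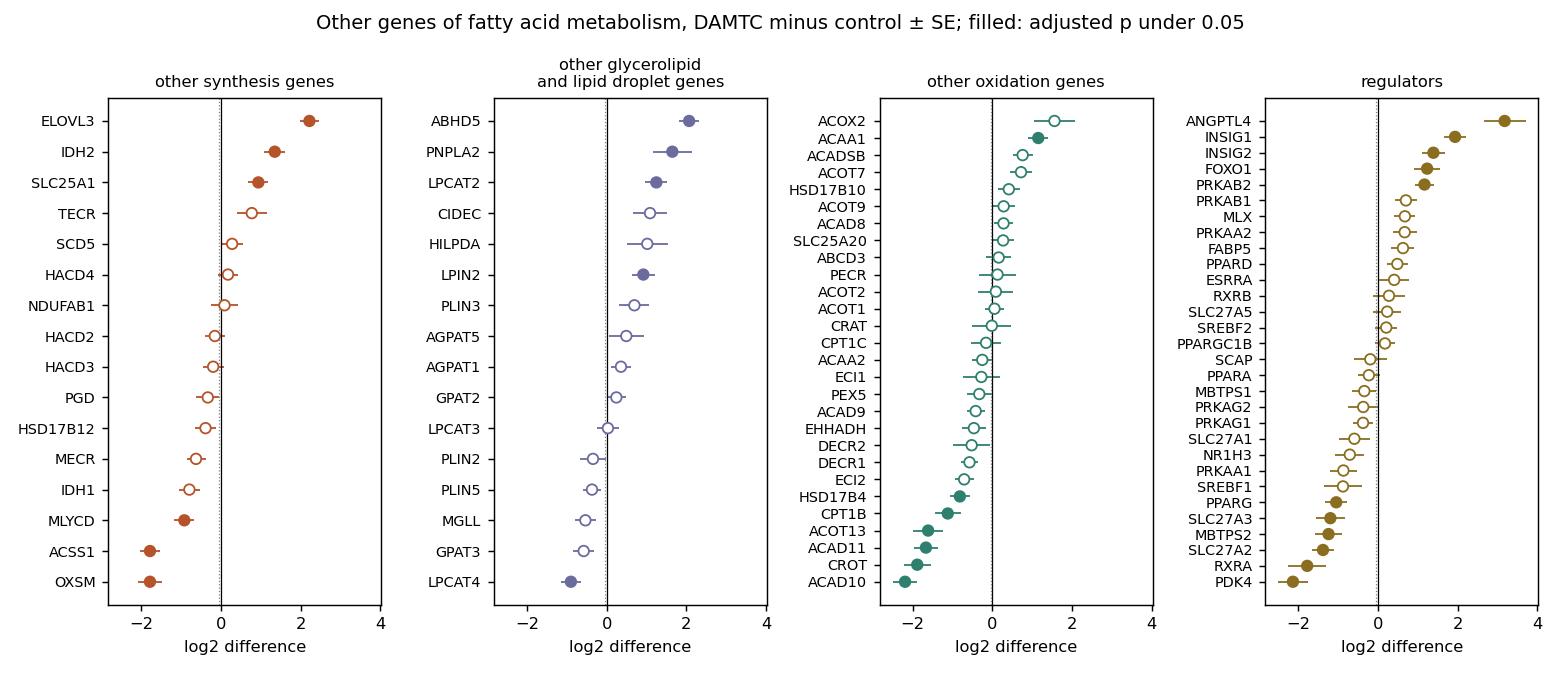
Log2 difference of DAMTC minus control with its SE (n = 3 per group) for the measured genes outside the 41, by list, in 4 panels of one horizontal scale. Filled points passed an adjusted p under 0.05, and the dotted line is the median of all genes at -0.04. ANGPTL4 at 3.18 lies farthest to the right and ACAD10 at -2.19 farthest to the left.

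Of 30 measured regulators and transport proteins, 5 rose and 6 fell, which is 36.7% called against 24.9% of all genes. ANGPTL4, a secreted inhibitor of lipoprotein lipase and a target of PPAR receptors, rose 9.08-fold (3.18 ± 0.53, adjusted p = 0.00349), from 6.97, 5.71 and 7.5 to 10.82, 9.20 and 9.71. PDK4, a kinase that shuts off pyruvate dehydrogenase when fatty acids are burned and is likewise a PPAR target, fell by 2.13 ± 0.38 on the log2 scale (adjusted p = 0.00502). Its arrays read 9.12, 8.17 and 9.38 in controls and 6.56, 7.33 and 6.39 with DAMTC, with no overlap, and the difference was -1.38 without background correction. With its probes averaged ANGPTL4 differed by 2.07. INSIG1 and INSIG2, which hold the SREBP escort protein in the ER, rose by 1.94 ± 0.27 (adjusted p = 0.00163) and 1.39 ± 0.30 (adjusted p = 0.0103). SREBF1, which encodes the SREBP of fatty acid synthesis, read 8.31, 9.84 and 10.04 in controls and 9.14, 8.02 and 8.41 with DAMTC, and its groups overlapped (-0.87 ± 0.48, adjusted p = 0.227). It passed the threshold without control replicate 1 (-1.42, adjusted p = 0.0134) and with array weights (-1.47, adjusted p = 0.00305), and was -0.56 without control replicate 3. SLC27A2, a very long chain acyl-CoA synthetase and transporter, fell by 1.38 ± 0.29 (adjusted p = 0.00921). RXRA, the shared partner of PPAR and LXR receptors, also fell (-1.77 ± 0.48, adjusted p = 0.0272), as did PPARG (-1.04 ± 0.28, adjusted p = 0.0270). PPARA, the PPAR of oxidation genes, was detected on 2 control arrays and 1 DAMTC array. At means of 5.38 and 5.16 it lay near the dimmest detected probes. Its difference of -0.22 ± 0.28 (adjusted p = 0.602) cannot show whether it changed. SLC27A3, a further fall (-1.19 ± 0.36, adjusted p = 0.0426), was detected on no DAMTC array. It met the detection rule only through the control arrays, which favoured a fall in advance. Its call held in 1 of the 6 fits without 1 array. The remaining calls were PRKAB2 (1.17 ± 0.25, adjusted p = 0.00961), FOXO1 (1.24 ± 0.32, adjusted p = 0.0235) and MBTPS2 (-1.24 ± 0.33, adjusted p = 0.0273). Of the 6 fits without 1 array, PRKAB2 passed in 6, FOXO1 in 2 and MBTPS2 in 3. SREBF1, PPARG, PPARA, SLC27A3, PRKAB2, FOXO1 and MBTPS2 were named after their values were seen. INSIG2 lost its call without DAMTC replicate 2 (adjusted p = 0.0502), RXRA without control replicate 2 or 3 or DAMTC replicate 2 or 3 (0.0658 to 0.1), and PPARG without control replicate 3 or DAMTC replicate 1 or 3 (0.0501 to 0.103). The list held 3 rises without DAMTC replicate 2, 3 falls without control replicate 3 or DAMTC replicate 1 or 2, and 2 falls without DAMTC replicate 3.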

How the data were processed

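Per the file headers, the deposited non-normalized bead table gives each probe's mean intensity on each array on a linear scale, with the number of beads behind it as a count, their standard error as a bead signal, and a detection p-value. BeadStudio is named per the submitters' processing notes, but the sources used here give no version. The deposited series matrix intensity values were, over the 48802 probe IDs on 1 row, a straight line of the same bead intensities on each array (largest residual 0.0107), background-subtracted and scaled. The other probe ID stands on a pair of rows, which were averaged here, and its average lies off that line by 1145 to 3050 intensity units. Their column medians were 10.94, 9.339 and 8.585 for controls and 8.992, 8.696 and 9.167 for DAMTC, and they were used as an alternative, floored at 16.

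In R 4.3.3 with limma 3.58.1, nec removed background estimated from the detection p-values (offset 16), and quantile normalization and log2 followed. Of 48803 probes, 27578 had 1 symbol from the platform annotation, 13 carried several and 21212 had no entry. The RefSeq gene table held the Entrez IDs of 27541 probes, and 0 symbols changed. Probes needed a detection p under 0.05 on 3 or more arrays, and the brightest such probe stood for its gene. The contrast of DAMTC minus control was fitted by lmFit with eBayes, with Benjamini-Hochberg adjustment over 10779 genes and 0.05 as threshold. For a gene with no detected array in a group, "at least" marks a bound of the fold against whichever was higher on each array, the probe's own level or the dimmest detected probe. The path was tested on simulated intensities.

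The members and lists were chosen with earlier results of these data known. All measured members are named, and of each further list the members past the threshold, at most 6 of largest difference. Alternatives covered background, normalization, deposited values, filter, probe rule, variance moderation, array weights, a replicate block, threshold and each array left out. The counts of the further lists under these alternatives were added after the data were seen. The labels state no pairing by replicate number. Deviations of same-numbered arrays from their group means correlated at -0.451, -0.457 and -0.178. Among differently numbered arrays the highest values were 0.555 (control 1 with DAMTC 2) and 0.432 (control 3 with DAMTC 1), and the lowest was -0.324. With 3 arrays per group these correlations cannot show whether arrays were paired. The single chip left no slide block to fit. Promoter windows are RefSeq's, for 32 of the 35 measured members. The number of arrays limits the precision.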

Additional observations from a re-analysis of the deposited data

How the results depend on the processing

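Over the 35 genes and 22 alternatives, 768 values could be computed. Of these, 725 were classed as in the main fit, most of them for genes past the threshold in neither. A call was lost in 38, all among the 11 called genes, and gained in 5. The sign changed for 0 called differences and for 32 uncalled ones. Synthesis held 2 rises in every alternative. Scaling by the array median moved the median log2 difference of all genes from -0.04 to -0.26, with 2145 falls, and to -0.19 with the deposited values. It moved the synthesis median to -0.50, the assembly median to -0.0577 with 1 rise, and the oxidation median to -0.26 with 0 rises. With the deposited values the oxidation median was -0.156 with 0 rises. The oxidation median was -0.0395 with detection on at least 1 array and -0.0590 with no detection filter. Oxidation rises numbered 1 with probes averaged, with a trend in the variance prior, or at a fold of at least 2. Array weights gave 2219 rises and 2641 falls over all genes, 5 falls in synthesis and 2 in oxidation, with FASN at -1.29 (adjusted p = 0.0358). An adjusted p under 0.01 gave 669 rises and 608 falls, 1 fall in synthesis, 1 rise and 0 falls in assembly and 0 rises in oxidation. With the replicate number as a block there were 767 rises and 827 falls over all genes, 1 fall in synthesis, 1 rise in assembly and 0 rises in oxidation. The labels do not state that the numbers pair the arrays. Without 1 array, rises over all genes lay between 789 and 1716 and falls between 803 and 1990. The synthesis median lay between -0.43 and -0.22, with 1 to 4 falls. Assembly held 1 to 2 rises and 0 to 1 falls. The oxidation median lay between -0.15 and 0.10, with 0 to 2 rises. ELOVL2 and FADS3 had no value with detection on all 6 arrays. The causes of these shifts were not tested.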
